A study of Homo sapiens with 7 samples.

Results

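The alpha and beta globin gene clusters were examined in a microarray study of replication timing, which asks when in S phase each stretch of DNA is copied. The globin loci were taken as the probes that carry the name HBB, HBD, HBG1, HBG2, HBE1, HBZ, HBA1 or HBA2, together with all probes in chr11:5230000-5315000 (the beta interval) or chr16:140000-240000 (the alpha interval) of hg19. This gave 15 of the 169544 probes on chromosomes 1 to 22 and X, of which 7 lay in the beta interval and 8 in the alpha interval. Probes named HBB, HBD and HBE1 were found, 4 in all, and every one of them lay in the beta interval. No probe carried the names of the other 5 genes, so HBG1, HBG2, HBZ, HBA1 and HBA2 have no value of their own and are described only through their neighbours.

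The globin genes encode the chains of haemoglobin. In the beta cluster on chromosome 11 they lie in the order of their use in life, with the embryonic HBE1 nearest the distal enhancers of the locus control region, then the fetal HBG2 and HBG1, then the adult HBD and HBB. The alpha cluster on chromosome 16 holds the embryonic HBZ and the adult HBA2 and HBA1, and its enhancers lie within the neighbouring gene NPRL3. Replication timing is a property of large domains: early domains tend to be rich in active genes, and tissue-specific genes often lie in domains whose timing differs between cell types, with the beta globin locus a classic case. The alpha cluster lies in a gene-dense region near the tip of its chromosome.

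K562, an established erythroleukaemic line that makes embryonic and fetal haemoglobin, was set against U2OS, an established osteosarcoma line with no erythroid character. All cells received 50 µM of the thymidine analogue BrdU for 2 h, 80000 cells were sorted by DNA content into fractions from early and from late S phase, and newly made DNA was pulled down with an antibody to BrdU and amplified. Early DNA was labelled with Cy3 (green) and late DNA with Cy5 (red) on every array, with no dye swap. The 6 arrays of the larger design were 1 K562 array of a new and 1 of an old cell sorting method, 2 U2OS arrays titled manual and 2 titled automated. The titles do not say what was done by hand or by machine. A further K562 array, labelled 44k, had fewer probes. Nothing states that arrays of a cell line came from separate cultures, so p-values measure the spread between these arrays, which may be technical. Each value is an average over many cells, so copies made in mid S phase cannot be told apart from a mixture of early and late copies.

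All values are log2(early/late), the log2 ratio of green to red processed signal with each array's median probe set to 0. A positive value means earlier than the median probe. The share of probes with neither channel well above background was 0.687% and 0.765% on the automated arrays and between 5.67% and 20.4% on the other 4 arrays of the larger design. The number of arrays limits the precision. The arrays measure DNA and not RNA, so the cell lines were checked at CDKN2A and MTAP, genes within a deletion known in K562. On the log2 scale and against the array median, the summed signal of both channels there lay between −3.57 and −1.95 on the K562 arrays and between −1.08 and −0.27 on the U2OS arrays.

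The sequences of 6 probes are shown because the results turn on them: the 4 that carry globin names, and the 2 alpha probes with the largest differences between the cell lines. They are given 5′ to 3′ as printed on the array, with hg19 positions from the files. In the last one, capitals mark the 46 bases that it shares with the start of the promoter window of HBM, the mu globin gene of the alpha cluster, in RefSeq (GRCh38.p14). The other probes shared no stretch of 20 bases with any promoter in that table.
HBB, chr11:5247723-5247780: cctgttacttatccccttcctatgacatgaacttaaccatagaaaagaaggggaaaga
HBD, chr11:5254133-5254192: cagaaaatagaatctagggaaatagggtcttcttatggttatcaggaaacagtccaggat
HBE1, chr11:5289998-5290057: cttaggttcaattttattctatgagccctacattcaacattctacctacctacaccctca
HBE1, chr11:5291338-5291388: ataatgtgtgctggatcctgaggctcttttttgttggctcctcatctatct
No gene name, chr16:192245-192304: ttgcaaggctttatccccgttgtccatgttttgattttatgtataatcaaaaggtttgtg
ENST00000472539, chr16:215724-215772: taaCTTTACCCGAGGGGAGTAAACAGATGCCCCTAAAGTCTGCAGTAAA

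The 7 beta probes spanned 70.3 kb with a median spacing of 13.3 kb. The other 3 were an unnamed probe at chr11:5236942-5237001, a probe named by the transcript CR621032 at chr11:5273787-5273846, and one named ENST00000380252 at chr11:5307164-5307223. The last of these names runs over 13 probes, most of them outside the interval. The median GC content was 38.3% over the beta probes, 35.8% over the alpha probes and 36.7% over all probes of the design.

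In K562, the beta globin locus replicated earlier than the genome's median probe, and in U2OS its timing ran from early to late with the array. HBB, the adult beta chain, was at 1.53 under new and 1.39 under old sorting in K562. In U2OS it was at −0.32 and 1.32 for the manual pair and at −2.07 and −1.58 for the automated pair. Both K562 arrays were above all 4 U2OS arrays, but manual array 2 came close to them. HBB differed by 2.12 (SE 0.84) between K562 and U2OS, with an adjusted p of 0.165 (limma with Benjamini-Hochberg adjustment over all probes), and was not called. Its late (red) signal was replaced by the software's minimum on the new-sorting array and on manual array 2, and such a ratio is a lower bound on how early the DNA was copied. On the old-sorting array neither channel was well above background. The separation of the cell lines at HBB is therefore not established.

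HBD, the minor adult delta chain, was brighter than the HBB probe on every array. It stood at 1.68 and 1.08 in K562, at −0.15 and 0.45 for the manual pair and at −1.63 and −1.26 for the automated pair. The cell lines did not overlap. The difference was 2.03 (SE 0.65), with an adjusted p of 0.0876 by limma.

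The unnamed probe beyond HBB had the largest difference of the 7, with 2.07 and 1.76 in K562, −0.00 and 0.52 for the manual pair and −2.15 and −1.96 for the automated pair. Its difference of 2.82 (SE 0.78) had an adjusted p of 0.0528 by limma, the smallest of the 7 beta probes. CR621032, at the fetal part of the cluster, was at 2.62 and 1.46 in K562, at −0.55 and 1.92 for the manual pair and at −0.75 and −1.49 for the automated pair. There the groups overlapped through manual array 2, and the adjusted p was 0.147. Its late signal was at the software's minimum on the new-sorting array and on manual array 2, so both values are lower bounds. ENST00000380252, at the far end of the interval beyond HBE1, was at 0.68 and 2.27 in K562, at 0.62 and 0.09 for the manual pair and at −1.23 and −1.33 for the automated pair, with an adjusted p of 0.132. On both K562 and both manual arrays its late signal was at that minimum, so only the automated values are not bounds.

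HBE1, the embryonic epsilon chain, had 2 probes that start 1340 bases apart and gave unlike values. The first read 2.34 and −0.39 in K562, 0.20 and 1.76 for the manual pair and −1.97 and −1.02 for the automated pair, and the K562 arrays lay on either side of the manual ones. The second stayed between −0.27 and 0.53 on all 6 arrays and had a difference of 0.10 (SE 0.48, adjusted p = 0.940 by limma). That probe was among the brightest of the design, with brightness percentiles between 97.9 and 99.1. The gap between both HBE1 probes was 1.92 on the new-sorting array and 1.70 on automated array 1, beside medians of 0.63 and 0.64 over the 1499 and 1497 pairs of neighbouring probes at most 2 kb apart. On manual array 1 it was 0.34, below the median of 0.82, and on the old-sorting array 0.67, below 0.75. On manual array 2 and automated array 2 it was 1.36 and 1.35, above medians of 0.67 and 0.57. Only on the new-sorting array did it exceed the 90th percentile of such pairs, which was 1.80.

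**Figure D1:**
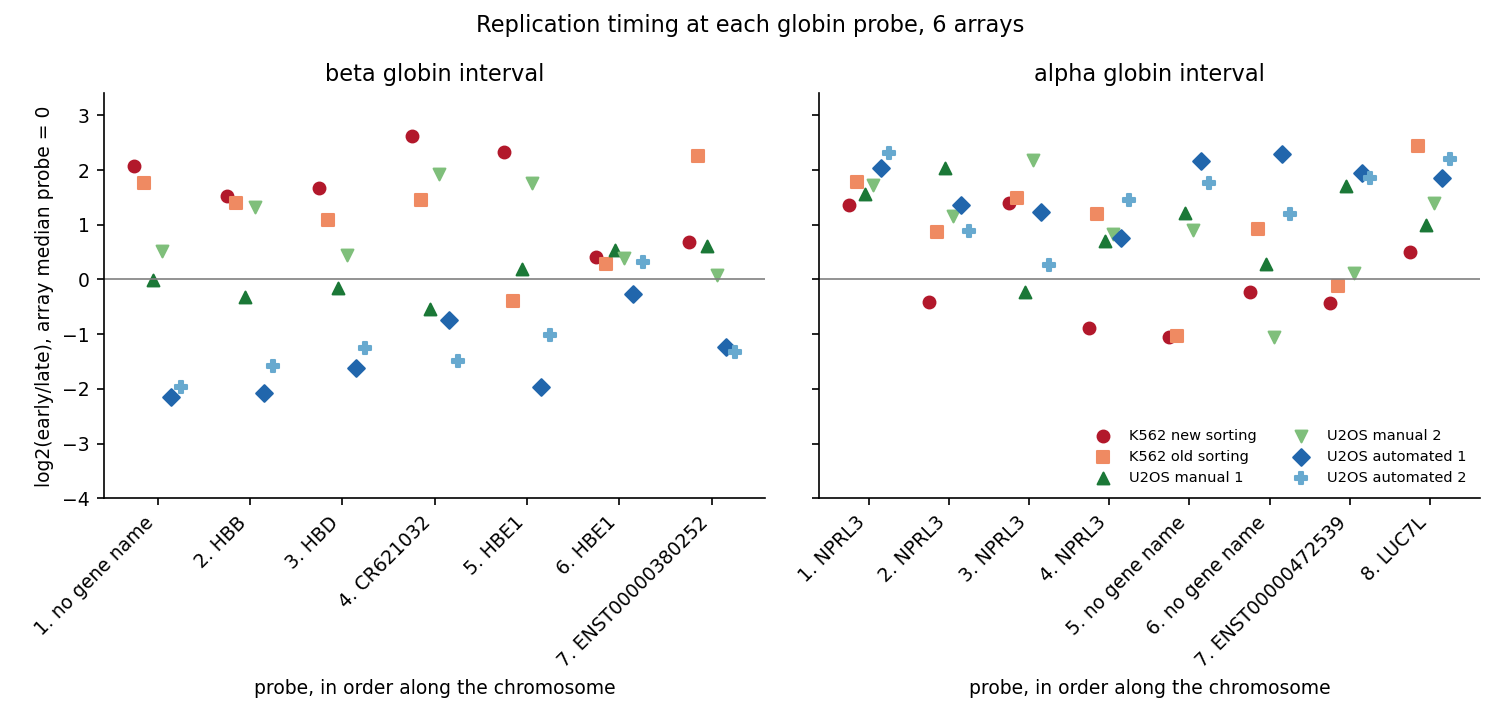
Values of log2(early/late) at the 7 beta probes (left) and the 8 alpha probes (right), in order along the chromosome. Each point is 1 array, with circles and squares for K562, triangles for manual U2OS and diamonds and plus signs for automated U2OS; both automated arrays lie below both manual arrays at all 7 beta probes.

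All 7 beta probes had a higher mean in K562 than in U2OS, and the median difference was 2.03. Over all 168795 probes tested, 46.3% had a higher mean in K562 and the median difference was −0.09. Limma called none of the 7 beta probes at an adjusted p under 0.05, beside 8.02% of all probes, 3.10% as earlier and 4.92% as later in K562. The share of called probes that were earlier was 38.7%, and 23.2% with normexp and 17.2% with no background correction. At an unadjusted p under 0.05 it was 5 of the 7, beside 22% of all probes. Both K562 arrays were above all U2OS arrays at 4 of the 7 probes, beside 13.8% of all probes. Of these, only HBD had no value at background or at the software's minimum. At HBB and ENST00000380252, manual values just below K562 are lower bounds, so the separation there is not established. At the unnamed probe the old-sorting value had neither channel well above background. Without manual array 2, the adjusted p by limma was 0.0412 for HBB, 0.0381 for the unnamed probe and 0.0294 for CR621032, beside 5.84% of all probes called in that fit. Leaving out any other single array gave no call among the 7 beta probes. Limma called the unnamed probe with loess within arrays (adjusted p = 0.0355), arrays centred on the mean (0.0328) and the deposited log ratio (0.0490). These fits called 12396, 14567 and 14182 of all 168795 probes. Without spots given no ratio the unnamed probe was also called (0.0358), beside 15175 of 158792 probes. It was not called with normexp (0.0906), no background correction (0.2475) or arrays scaled to a common spread (0.0526). Without spots at background in both channels, limma called HBD (0.0209), beside 14575 of 112207 probes. Only 4 globin probes of both loci could be tested in that fit.

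The mean of the 7 beta probes was 1.62 under new and 1.12 under old sorting in K562. It was 0.05 and 0.92 for the manual pair and −1.44 and −1.19 for the automated pair. K562 averaged 1.37 ± 0.35 (SD, n = 2) and U2OS −0.41 ± 1.1 (SD, n = 4), and the lines did not overlap. The difference of 1.78 had an exact two-sided permutation p of 0.133, the smallest that 2 against 4 arrays allow. Against the automated arrays alone the difference was 2.68, and against the manual arrays alone 0.88. Among 24161 windows of 100 kb, the beta interval had earliness percentiles of 90.7 and 79.9 in K562, 52.7 and 71.1 for the manual pair and 30.6 and 34.5 for the automated pair. Its K562 minus U2OS difference had a percentile of 96.1.

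Neither channel was well above background for 4 of the 7 beta probes on the old-sorting K562 array, for 1 on each manual array and for none on the others. Without such spots the interval difference was 1.56 and the groups overlapped, with the old-sorting array at 0.64 over its 3 remaining probes and manual array 2 at 0.70. With normexp background correction (offset 50) it was 1.04, with no background correction 0.68, and in both the groups overlapped.

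Windows of 100 kb were tested next. The window chr11:5200001-5300000, which holds 6 of the beta probes, averaged 1.35 in K562 and −0.48 in U2OS, a difference of 1.83 (SE 0.72, adjusted p = 0.119 by limma). The window chr11:5300001-5400000 averaged 1.23 and −0.41, a difference of 1.64 (SE 0.71, adjusted p = 0.154 by limma). Of the 4 windows that hold globin probes, limma called 0 at an adjusted p under 0.05 and 2 at an unadjusted p under 0.05, beside 21.5% and 32.9% of all windows. The first beta window passed without manual array 2 (adjusted p = 0.0279), beside 18.6% of windows, and with arrays centred on the mean (0.0462), beside 23.5%. Against the automated arrays alone both beta windows were called, with adjusted p of 0.0219 and 0.0218 beside a call rate of 16.0%. Against the manual arrays alone neither was called, with differences of 0.82 and 0.55 and adjusted p of 0.423 and 0.383 by limma, beside a call rate of 5.67%. By gene name, against the automated arrays alone HBB differed by 3.28 (adjusted p = 0.0191) and HBD by 2.83 (adjusted p = 0.0205) by limma, beside a call rate of 11.4%. Against the manual arrays alone HBB differed by 0.96 (adjusted p = 0.473) and HBD by 1.23 (adjusted p = 0.221).

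The surroundings of the beta globin locus were then compared side by side. The 500 kb on the left (the side of HBB) averaged 1.35 and 0.83 in K562, −0.37 and −0.42 for the manual pair and −2.53 and −2.27 for the automated pair, over 35 probes. The 500 kb on the right (the side of HBE1) averaged 1.46 and 1.07, 0.53 and 1.03, and −1.09 and −1.17, over 41 probes. The right flank was earlier than the left on all 6 arrays. This gradient measured 0.17 ± 0.09 (SD, n = 2) for K562, beside 1.22 ± 0.27 (SD, n = 4) for U2OS, without overlap, and the exact permutation p of that difference was 0.133, the smallest possible.

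Within arrays, the beta interval was earlier than its left flank on all 6 arrays, by 0.75 ± 0.48 (SD, n = 6). The exact sign-flip p was 0.0313, the smallest that 6 arrays allow, and 0.125 after adjustment over the 8 interval and flank comparisons made. The interval minus the left flank was 0.28 ± 0.02 (SD, n = 2) for K562, beside 0.98 ± 0.39 (SD, n = 4) for U2OS. Against its right flank the interval differed by −0.12 ± 0.25 (SD, n = 6), with an exact sign-flip p of 0.344. With flanks of 250 kb, the gap to the left flank was 0.42 with an exact p of 0.219.

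In steps of 100 kb, the manual U2OS mean fell from 0.62 in the step nearest the left edge to −1.26 in the farthest, and the automated mean from −1.92 to −2.80. K562 went from 1.28 to 0.42 over the same steps. To the right, all steps lay between 0.92 and 1.66 in K562, between 0.72 and 0.83 for the manual pair and between −1.63 and −0.88 for the automated pair.

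**Figure D2:**
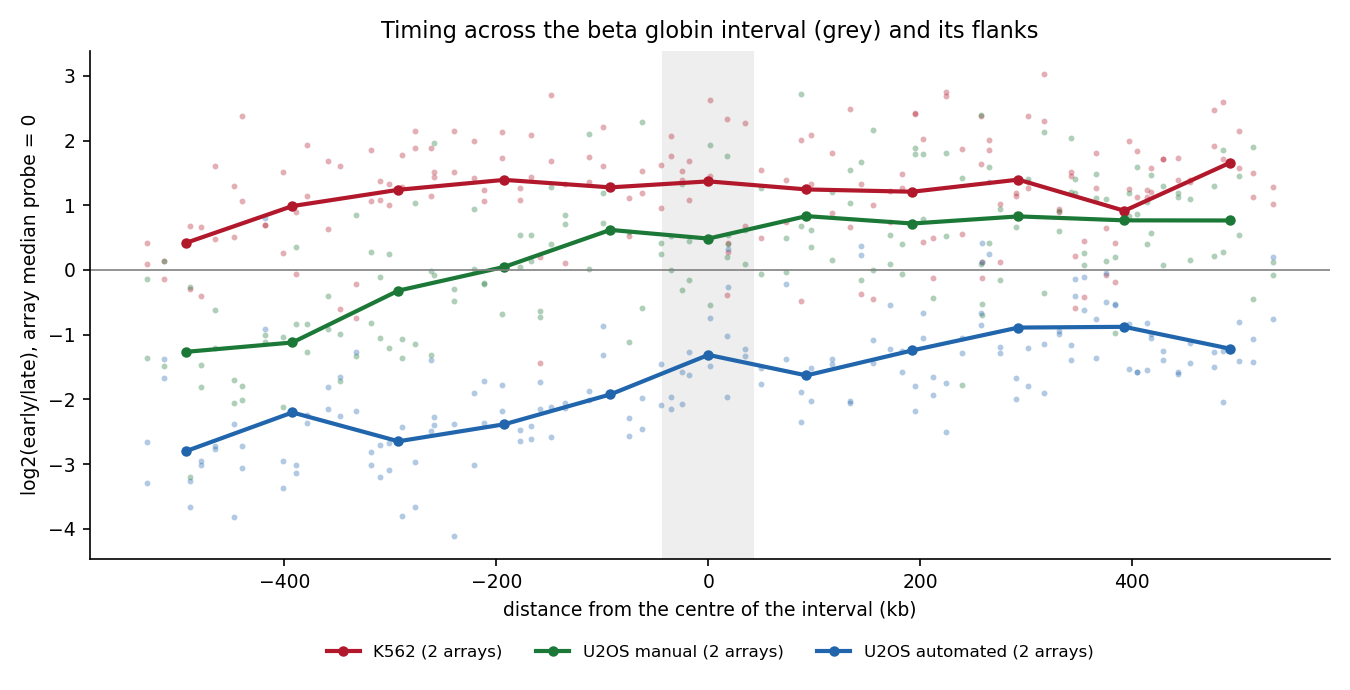
Timing over the beta interval (grey) and 500 kb on each side, against distance from the interval's centre in kb. Small points are single probes on single arrays and lines join the means of 100-kb steps and of the interval, each over 2 arrays; K562 stays above 0 in every step, manual U2OS crosses 0 on the left, and automated U2OS stays below 0 throughout.

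In the main fit, called probes were found in the left flank, between 153 and 436 kb from the beta interval. None was called in the interval, where the unnamed probe came nearest (adjusted p = 0.0528 by limma). Limma called 12 of the 35 left-flank probes as earlier in K562, beside 3.10% of all probes, and 0 of the 40 tested right-flank probes. Of these 40, 13 had an unadjusted p under 0.05, beside 22% of all probes. All 35 left-flank probes and 38 of the 40 right-flank probes had a higher mean in K562, beside 46.3% of all probes. The largest difference was 4.12 (SE 0.59, adjusted p = 0.00571) at a probe of the transcript ENST00000477339, 398 kb left of the interval, which read 2.38 and 1.07 in K562 and between −3.06 and −1.80 on all U2OS arrays. The next differences were 3.70 and 3.70 at other probes of that transcript, with adjusted p of 0.0637 and 0.0159. In the other direction, a TRIM6 probe had the lowest difference, −0.70 (adjusted p = 0.600).

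The beta cluster is embedded among olfactory receptor genes, with TRIM genes, some of them antiviral, beyond them. All 11 of these flank genes with a name from the OR51, OR52, OR56 and TRIM families could be tested by gene name. Of the 11, 10 had a higher mean in K562, with a median difference of 1.53 over the list and −0.10 over all gene names. Limma called none at an adjusted p under 0.05, beside 11.3% of all gene names, and 4 had an unadjusted p under 0.05, beside 24.3%. OR52A1, on the HBB side of the cluster, was at 2.21 and 1.61 in K562, at 0.73 and 1.19 for the manual pair and at −1.32 and −0.86 for the automated pair. OR51B4, beyond HBE1, was at 1.55 and 0.49, −0.06 and 1.26, and −1.76 and −1.51. TRIM5, which blocks incoming retroviruses, was at 1.65 and 1.46 in K562, 0.32 and 1.38 for the manual pair and −1.22 and −1.12 for the automated pair. By group mean these 3 genes had the order of the beta interval, with K562 highest and the automated arrays lowest.

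TRIM6 was the exception in sign, with a difference of −0.30 (adjusted p = 0.768). It read 0.33 and −0.51 in K562 and between −0.38 and 0.83 in U2OS.

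Within U2OS, the beta globin locus and both of its flanks were later on the automated than on the manual arrays. Both automated arrays were below both manual arrays at all 7 beta probes, beside 29.7% of all probes. The window with HBB, HBD and HBE1 averaged 0.53 on the manual and −1.49 on the automated arrays, and fell by 2.02 (SE 0.35, adjusted p = 0.0177 by limma). The next window averaged 0.68 and −1.50 and fell by 2.18 (SE 0.23, adjusted p = 0.00982 by limma). The call rate over 24192 windows was 7.88%, and 5.73% of windows were called as later on the automated arrays. Of the called windows 27.3% were earlier on the automated arrays, against 53.9% with loess within arrays and 51.7% with arrays centred on the mean. Under both of these the beta windows stayed called, with differences of −1.75 and −1.92 (loess) and −1.87 and −2.03 (mean). The differences were smaller with normexp, at −1.31 and −1.29, and with no background correction, at −1.10 and −1.03. The change of −1.80 in the beta interval mean had a percentile of 0.207 among the same differences of all windows, whose median was −0.17. The first window lost its call without automated array 1 (adjusted p = 0.113) or automated array 2 (0.0617), where the single remaining array was assumed to vary like the others.

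Both manual arrays shared a slide that held no automated array, so handling and slide cannot be told apart. No slide held both cell lines. The manual arrays were also dimmer than the automated ones, with 40.3% and 60.4% of probes well above background in the late channel beside 96.1% and 96.6%, and the part of this in the difference was not tested.

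**Figure D3:**
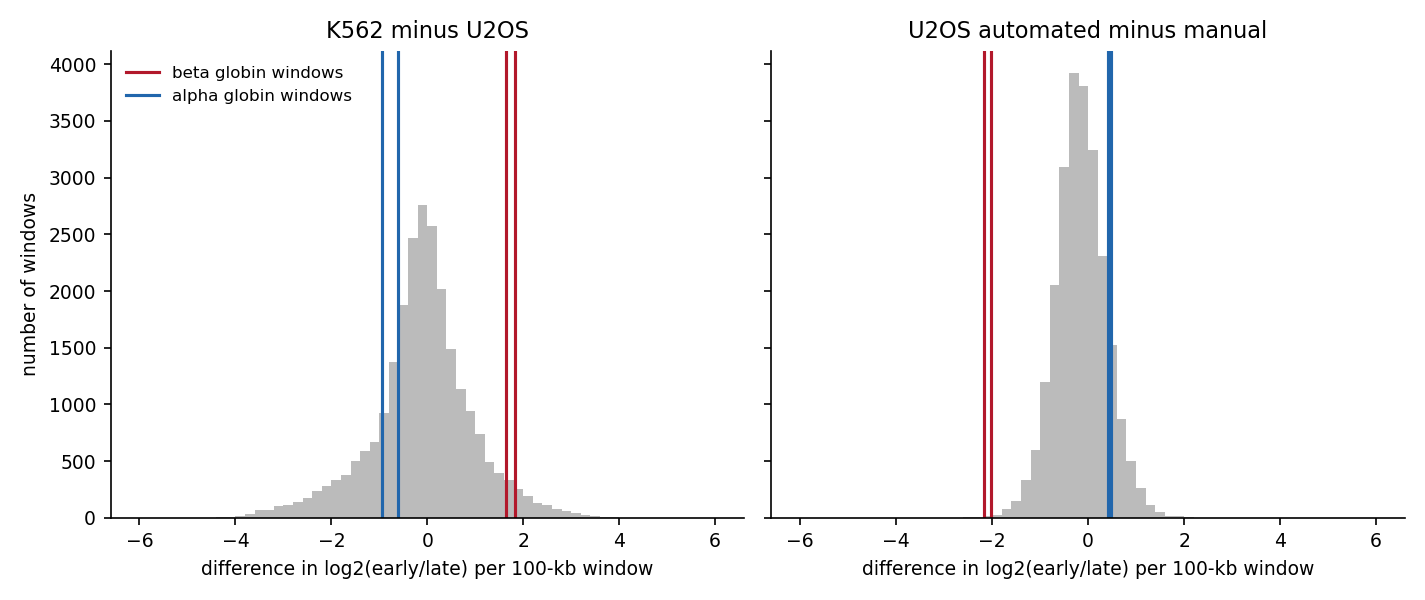
Number of 100-kb windows (grey bars) by difference in log2(early/late), for K562 minus U2OS (left) and automated minus manual U2OS (right). Red lines mark the 2 beta globin windows and blue lines the 2 alpha globin windows; on the right, the beta windows at −2.02 and −2.18 lie at the lower end of the distribution.

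The alpha globin locus was earlier than the median probe on all 4 U2OS arrays. In K562, its mean was near the median on the new-sorting array and early on the old-sorting array. On the old-sorting array, however, the locus had neither channel well above background at 6 of its 8 probes. Its 8 probes spanned 97.5 kb: 4 in NPRL3, a subunit of a complex that restrains mTORC1 signalling, 2 with no gene name, the probe at HBM, and 1 in LUC7L, a gene linked to splicing, at the other edge. No probe lay between the one at HBM and the one in LUC7L, so the stretch that holds HBA2 and HBA1 was not sampled.

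The unnamed probe at chr16:192245-192304 was the only one of the 15 globin probes that limma called. It was at −1.06 and −1.04 in K562, at 1.22 and 0.91 for the manual pair and at 2.16 and 1.76 for the automated pair. Every U2OS array was above both K562 arrays. It was later in K562 by −2.56 (SE 0.52, adjusted p = 0.0169), beside 4.92% of all probes called in that direction. The brightness percentile of this probe was 83.25 on the old-sorting array and at most 38.96 on the other arrays of the larger design. The old-sorting value thus rests on an unusually bright spot, and the reason was not tested. The call was lost without the new-sorting array (adjusted p = 0.0651), the old-sorting array (0.0519) or automated array 2 (0.0586), against the manual arrays alone (0.160) and with no background correction (0.0934).

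The probe at HBM was at −0.43 and −0.12 in K562, at 1.71 and 0.12 for the manual pair and at 1.95 and 1.86 for the automated pair. The printed values of the groups did not overlap, but the new-sorting value and that of manual array 2 had neither channel well above background, and the late signal was at the software's minimum on the new-sorting array and on manual array 1. The separation at this probe is therefore not established. Its brightness percentile was 64.06 on the old-sorting array and at most 14.02 on the other arrays of the larger design. The difference was −1.68 (SE 0.61, adjusted p = 0.129 by limma). Without manual array 2 the adjusted p was 0.0431 by limma, beside 5.84% of all probes called in that fit. The second unnamed probe, at chr16:202249-202308, spread most within U2OS, with 0.29 and −1.06 for the manual pair and 2.29 and 1.20 for the automated pair, around −0.23 and 0.92 in K562.

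NPRL3 had 4 probes. From the outer edge inwards, the probe at position 141727 read 1.36 and 1.78 in K562 and between 1.57 and 2.31 in U2OS. The next, at 154314, read −0.42 and 0.87 in K562 and between 0.88 and 2.03 in U2OS. The third, at 165385, read 1.40 and 1.5 in K562 and between −0.22 and 2.18 in U2OS. The innermost, at 179080, read −0.89 and 1.19 in K562 and between 0.71 and 1.46 in U2OS. There the old-sorting value of 1.19 had both channels at the software's minimum, so it is not a measured ratio. The late signal at 179080 was also at that minimum on the new-sorting array and both manual arrays. On the old-sorting array, all 4 NPRL3 probes had neither channel well above background. By gene name NPRL3 differed by −0.42 (SE 0.37, adjusted p = 0.560 by limma). LUC7L at its probe in the interval read 0.50 and 2.44 in K562 and between 1.0 and 2.20 in U2OS.

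Of the 8 alpha probes, 7 had a lower mean in K562, with a median difference of −0.56. Over all probes, 46.3% had a higher mean in K562 and the median difference was −0.09. Both K562 arrays were below all U2OS arrays at 3 of the 8, beside 17.3% of all probes. Of these 3, only the called unnamed probe had no value at background or at the software's minimum. At NPRL3 154314 the old-sorting value of 0.866 had neither channel well above background and lay just below automated array 2 at 0.877. The separation there and at the HBM probe is not established. Of the 8 alpha probes, 2 had an unadjusted p under 0.05. Both automated arrays were above both manual arrays at 5 of the 8, beside 18.6% of all probes. Neither channel was well above background for 6 of the 8 probes on the old-sorting array, 3 on the new-sorting array, 2 and 3 on the manual arrays and none on the automated arrays. The median brightness of the alpha probes was below that of the array on all 6 arrays, by −0.90 to −1.98 log2 units.

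The mean of the 8 alpha probes was 0.03 under new and 0.94 under old sorting in K562, 1.04 and 0.91 for the manual pair and 1.71 and 1.49 for the automated pair. K562 averaged 0.49 ± 0.65 (SD, n = 2) and U2OS 1.29 ± 0.38 (SD, n = 4), and the old-sorting array lay among the manual ones. The difference of −0.80 had an exact two-sided permutation p of 0.267. It was −0.34 without the new-sorting array and −1.26 without the old-sorting array. It was −0.37 with normexp and −0.42 with no background correction. Without spots at background in both channels it was −1.39, but the old-sorting mean of −0.26 then rested on 2 probes, those with the largest differences, and the automated means on 8, so the arrays no longer compare the same probes. Among all windows the interval had percentiles of 51.9 and 73.7 in K562, 74.2 and 70.6 for the manual pair and 96.8 and 92.4 for the automated pair.

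By window, chr16:100001-200000 averaged 0.52 in K562 and 1.46 in U2OS, a difference of −0.94 (SE 0.32, adjusted p = 0.0761 by limma), and chr16:200001-300000 averaged 0.62 and 1.24, a difference of −0.62 (SE 0.30, adjusted p = 0.195). The first passed without the old-sorting array (adjusted p = 0.0219 by limma), beside 33.2% of windows, and on the deposited log ratios (0.0357), beside 21.9%. The second passed without spots at background in both channels (0.0258), beside 4851 of 19547 windows, but there the arrays keep different probes. Between automated and manual arrays the alpha windows differed by 0.42 (adjusted p = 0.281) and 0.47 (adjusted p = 0.212) and were not called by limma. With normexp, at 0.80 and 0.67, and with no background correction, at 0.60 and 0.49, both were called, beside 61.2% and 55.0% of all windows.

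The alpha interval was set against its surroundings in the same way. The right flank, with 36 probes, averaged 0.38 and 0.52 in K562, 1.05 and 0.74 for the manual pair and 1.27 and 1.24 for the automated pair, so that in the flank the K562 arrays were below all U2OS arrays (difference −0.63, exact permutation p = 0.133, the smallest possible). The interval minus the right flank was 0.15 ± 0.30 (SD, n = 6), with an exact sign-flip p of 0.250. The left flank ends at the chromosome tip and held 2 probes. They were SNRNP25, a spliceosome component, at 1.52 and 0.67 in K562 and between 1.82 and 2.34 in U2OS, and RHBDF1, an inactive rhomboid protease, at −0.79 and 1.18 in K562 and between −0.22 and 3.02 in U2OS.

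**Figure D4:**
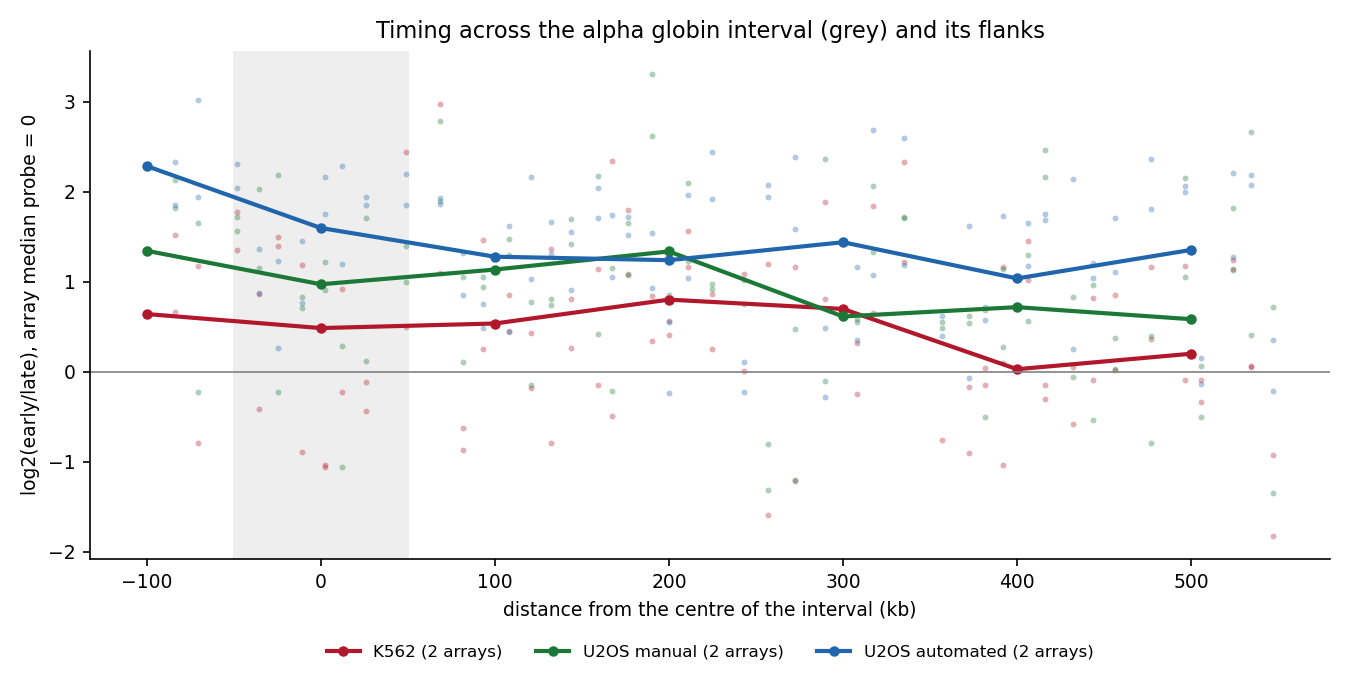
Timing over the alpha interval (grey) and its flanks, against distance from the interval's centre in kb, drawn as for the beta locus; the left flank is cut short by the end of the chromosome. In the interval the mean is 0.49 for K562, 0.97 for manual and 1.60 for automated U2OS, and between 200 and 300 kb from the right edge K562 is at 0.70 and manual U2OS at 0.61.

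Of the 16 listed alpha neighbours, 10 had probes, NPRL3 and LUC7L among them. All 10 had a lower mean in K562, with a median difference of −0.76 over the list and −0.10 over all gene names. Limma called none at an adjusted p under 0.05, beside 11.3% of all gene names. At an unadjusted p under 0.05 there were 2, beside 24.3%: SNRNP25 (difference −0.94, adjusted p = 0.150) and PDIA2, a protein disulphide isomerase (−0.86, adjusted p = 0.186). AXIN1, a scaffold of the Wnt pathway with 6 probes, was at 0.58 and 1.19 in K562, 1.73 and 1.22 for the manual pair and 1.31 and 1.29 for the automated pair. In the right flank limma called 1 of the 35 tested probes, beside 4.92% of all probes called as later in K562. It was a probe named BC064904 that lies 366 kb from the interval and was later in K562 by −2.24 (SE 0.48, adjusted p = 0.0211). The next largest differences were −1.77 at RHOT2 (adjusted p = 0.131) and −1.58 at a second LUC7L probe (0.0933). In the other direction the largest were 0.73 at RAB11FIP3, 0.13 at LOC100134368 and 0.07 at SOLH, none of them called.

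**Figure D5:**
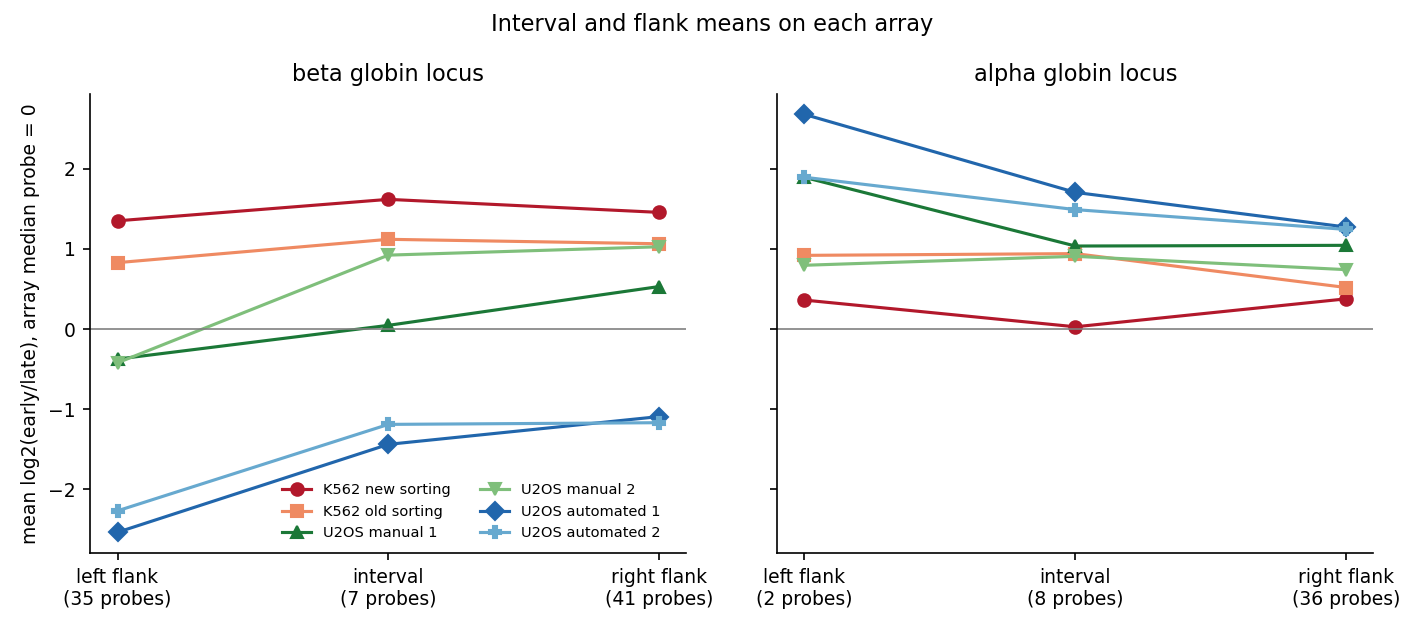
Mean log2(early/late) of the left flank, the interval and the right flank at the beta (left) and alpha (right) locus, with 1 line for each of the 6 arrays and the number of probes under each label. At the beta locus the U2OS lines rise from left flank to right flank while the K562 lines stay between 0.83 and 1.62.

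Set against each other on the same array, the alpha interval was later than the beta interval on both K562 arrays, by −1.59 and −0.18. On the automated U2OS arrays it was earlier, by 3.14 and 2.68, and on the manual arrays the differences were 0.99 and −0.02. K562 averaged −0.88 ± 1.0 (SD, n = 2) and U2OS 1.70 ± 1.47 (SD, n = 4), and the exact permutation p of the difference was 0.133, the smallest possible.

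The sorting methods in K562, with 1 array each and no test, differed by 0.50 at the beta interval (new minus old) and by −0.91 at the alpha interval. Among the same differences of all windows these had percentiles of 85.4 and 27.2.

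The array labelled 44k carried 5 of the beta and 2 of the alpha probes. Its late channel was well above background for 8.83% of its probes and at the software's minimum for 6 of these 7, which makes those values lower bounds of earliness. Centred on the probes common to all 7 arrays, HBB read −0.33, HBD 1.24, CR621032 0.57, and the HBE1 probes 1.52 and 0.74. On the same scale the other K562 arrays read 1.19 and 1.27 at HBB and 1.34 and 0.96 at HBD. The HBB and HBD values of the 44k array are such bounds, so no order between these arrays is read from them. The alpha probes read −0.59 in NPRL3 and −2.45 at the second unnamed position.

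Globin genes elsewhere in the genome gave no call. MB, which encodes the myoglobin of muscle, was at 1.27 and 2.40 in K562 and between 1.08 and 1.55 in U2OS. CYGB (cytoglobin) read 0.30 and 0.45 in K562 and between 0.05 and 1.43 in U2OS. NGB (neuroglobin) read 1.53 and −0.04 in K562 and between 0.32 and 2.30 in U2OS. The groups overlapped at all 3, limma called none, and none had an unadjusted p under 0.05. Of 12 regulators of the globin genes 11 had probes, of which 4 had a higher mean in K562, with a median difference of −0.31. Limma called none at an adjusted p under 0.05, beside 11.3% of all gene names, and 2 had an unadjusted p under 0.05, beside 24.3%. These were TAL1, an erythroid transcription factor (difference −0.90, adjusted p = 0.189), and HBS1L, a ribosome rescue factor whose shared intergenic region with MYB carries variants tied to fetal haemoglobin (1.38, adjusted p = 0.0501), both named after their values were seen.

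The gene names on other chromosomes whose values came nearest to each interval were ranked by Euclidean distance over the 6 arrays, among names with at least 3 probes. For the beta interval, among 10777 names, they were SHCBP1 at a distance of 0.45, ATP6V1H at 0.63, FAM3C at 0.66, NDFIP2 at 0.72 and RBM26 at 0.75. SHCBP1 read 1.96 and 1.37 in K562, 0.01 and 0.86 for the manual pair and −1.32 and −1.18 for the automated pair. For the alpha interval, among 10991 names, they were ZC3H3 at 0.40, ANPEP at 0.52, and RABGGTA, NID1 and COL27A1 at 0.60 each. ZC3H3 read 0.18 and 0.74 in K562, 1.27 and 0.77 for the manual pair and 1.58 and 1.54 for the automated pair.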

How the data were processed

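Two-colour Agilent arrays were read from the scanner output that the authors deposited. Per the file headers, Feature Extraction 11.5.1.1 wrote the files on hg19, while the submitters' processing notes name version 9.1. The deposited green and red processed intensity is background-subtracted and dye-normalized, and the deposited log10 ratio of red over green is 0 where no ratio could be given.

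Control, saturated and outlier-marked spots were left out, spots of a probe were averaged, and the log2 ratio of green over red processed intensity was centred on each array's median. Means were taken per gene name and per 100-kb window with at least 3 probes. K562 (2 arrays) and U2OS (4 arrays) were compared with limma 3.58.1 in R 4.3.3 over all probes, names or windows, with Benjamini-Hochberg adjustment and calls under 0.05. Region means were compared by exact permutation over arrays. The fits were tested on simulated data.

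Named genes were the members, other names in the intervals, MB, CYGB, NGB, listed neighbours, 12 regulators as counts, the 3 flank probes per direction with the largest difference, and the 5 names nearest each interval mean. The members and lists were chosen with earlier results of these data known. CDKN2B had no probe for the check of the cell lines.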

Additional observations from a re-analysis of the deposited data

Results flagged for a closer look

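Among 31 groups of 4 U2OS arrays, 2 values lay far from the other 3 by Dixon's criterion, and chance gives about 1 in 20. At the NPRL3 probe at position 179080 of chromosome 16, automated array 2 read 1.46, and the nearest array 0.83. That nearest value, of manual array 2, had its late signal at the software's minimum and neither channel well above background. At the probe at HBM, manual array 2 read 0.12, and the nearest array 1.71.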

How the results depend on the processing

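The number of probes called between K562 and U2OS was 13533 of 168795 tested, and was 7244 with normexp and 3538 with no background correction. It was 7305 against the automated arrays only and 0 by limma against the manual arrays only (26587 at an unadjusted p under 0.05). With the 44k array it was 5037 of only 49908 probes tested. Called gene names numbered 2777, and 1506, 772 and 633 with normexp, no background correction and the manual arrays only. Called windows numbered 5185 of 24161, and 2393, 1774 and 1369 with normexp, no background correction and the manual arrays only. They numbered 1387 of 6616 with the 44k array and 2498 of 11175 with windows of 250 kb. Automated against manual windows numbered 1907 of 24192, and 14805 with normexp and 13305 with no background correction. They numbered 1173 of 20532 without dim spots and 1246 of 23784 without spots given no ratio. Leaving out each array gave 5583 to 11165 probes, 1055 to 2546 names, 3468 to 8026 windows and 19 to 5418 automated against manual windows.

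The alpha interval minus its right flank turned to −0.013 with no background correction and −0.095 with the 44k array, and minus both flanks to −0.041, −0.24 and, with flanks of 250 kb, −0.00087. New minus old sorting at the alpha interval was −0.24 with normexp, −0.40 with no background correction, −0.077 with loess, −0.54 centred on the mean, 0.42 without dim spots, −0.60 with the deposited log ratio, −0.75 without spots given no ratio and −1.38 as a median of probes. Without each array in turn, the interval difference ran from 1.44 to 2.23 at beta and from −1.26 to −0.34 at alpha. Single features turned sign: the LUC7L probe to 0.035 (loess) and 0.27 (manual only), the second HBE1 probe to −0.32 (normexp), −0.24 (no background correction) and −0.12 (manual only), NPRL3 at 179080 to 0.10 (normexp), the second unnamed alpha probe to 0.12 (normexp) and 0.73 (manual only), the first HBE1 probe to −0.0073 and HBE1 by name to −0.063 (manual only), and CYGB to 0.10 (automated only). Leaving out an array, sign changes gave ranges of −1.11 to 0.83 at the LUC7L probe, −0.072 to 0.20 and −0.13 to 2.60 at the HBE1 probes, −1.83 to 0.25 at NPRL3 179080, −0.91 to 0.24 at the second unnamed alpha probe, −0.39 to 0.071 at CYGB, −0.052 to 1.38 at HBE1 by name, −0.054 to 1.07 at MB, −1.41 to 0.15 at NGB and −0.91 to 0.067 at NPRL3 by name. The causes were not tested.

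With a replicate block, 2847 windows were called between automated and manual arrays, and the differences of −2.02, −2.18, 0.42 and 0.47 at the globin windows kept their side of the threshold. Same-numbered arrays had a correlation of −0.01 over windows, so the number is not taken as a pairing. A slide block could not be fitted. Alternatives on the deposited ratio, on spots given no ratio and on slides were chosen after seeing the data. Spots at background limit single probes: neither channel was well above background for between 5.67% and 20.4% of probes on the K562 and manual arrays.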

Other observations

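NFE2, an erythroid transcription factor gene with 1 probe and named after its values were seen, read −2.04 and 1.13 in K562, −0.70 and −0.53 for the manual pair and 3.31 and 3.49 for the automated pair.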
